A study of Gallus gallus with 28 samples.

Results

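Chromatin modifiers and remodelers were followed in 4 chicken B cell lines that differ in BTK, the cytoplasmic tyrosine kinase that carries signals from the B cell receptor. The members are 83 genes of 13009 with a named probe set on the array. They were chosen by symbol: lysine demethylases (KDM), lysine methyltransferases (KMT, SETD), histone deacetylases (HDAC), sirtuins (SIRT), DNA methyltransferases and TET enzymes, the Polycomb repressive complex 2 (PRC2) core EZH1, EZH2, SUZ12 and EED, CBX readers, SMARC and CHD remodelers and bromodomain (BRD) proteins. Each gene was read by its brightest probe set over all 28 arrays.

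DT40, a chicken bursal lymphoma line with endogenous Btk, gave 10 arrays. B7.10, a DT40 derivative without endogenous Btk, gave 10. B41-13, the knockout reconstituted with human BTK, and B46-5, the knockout reconstituted with kinase-inactive human BTK, gave 4 each. Cells were kept unstimulated for 6 h or 24 h, or stimulated through the receptor with anti-IgM (M4) for 2 h or 6 h. All cells started in serum-free medium for a short time. Fetal calf serum came in 3 batches for DT40 and B7.10, except at 2 h, and only batch 1 was used for the other lines. RNA of 10 repeats was combined for every array, so the spread between arrays is that between pools. No label says whether a line is a single clone or how many clones were made, so a difference between lines cannot be told apart from a difference between clones.

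Chromatin regulators work as writers, erasers, readers and remodelers. Methyltransferases and demethylases set and remove methyl marks on histone tails, deacetylases and sirtuins remove acetyl groups, and bromodomain and chromodomain proteins bind the marked tails. PRC2 methylates histone H3 at genes to be kept silent, DNMT3 enzymes methylate DNA and TET enzymes oxidise the methyl group. Remodelers of the SWI/SNF, ISWI and CHD families use ATP to move nucleosomes. In B cells EZH2 is known for its role in germinal centre B cells, and TET2 and DNMT3A for their role in blood cell differentiation.

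BTK, the targeted gene, spanned 9.34 to 10.61 log2 in DT40 and 4.70 to 5.30 in B7.10. On these chicken probes it read 5.61 to 5.97 in B41-13 and 5.13 to 5.36 in B46-5, and how far the probes read the human transgene was not tested. For 5 arrays (2 of B7.10, 1 of B41-13 and 2 of B46-5) another label field contradicts the title. Groups follow the titles. Some calls that were lost without these arrays are named with the results, but not all. Counts without these arrays are given for the line comparisons. The B cell markers CD79B and CD74 were high, with medians of 11.56 and 11.45, while PAX5 read 5.23, BLK 5.76 and CXCR5 5.97. The other B cell markers apart from BTK lay between 8.26 and 10.57. Of the T cell markers, CD3D read 12.03 and CD3E 4.86, and SPI1 of the myeloid list read 10.13.

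Mean levels of the members ran from 3.45 to 11.94 log2. Their median was 7.50 log2, against 5.88 for all genes. The brightest were SMARCA5, the ISWI ATPase, at 11.94, EED, the PRC2 subunit that binds the methyl mark, at 11.27, and EZH2, its catalytic subunit, at 11.13. EZH1, the alternative catalytic subunit, read 5.07, but levels of different probe sets share no common scale and are not ranked as transcript amounts. The dimmest were KDM2A at 3.45, SMARCB1 at 3.87 and KDM1B at 3.96, which lay under 3.98, the level below which 40% of probe sets fell. The other 80 lay above it. The median standard deviation over the 28 arrays was 0.22 for the members and 0.18 for all genes.

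**Figure D1:**
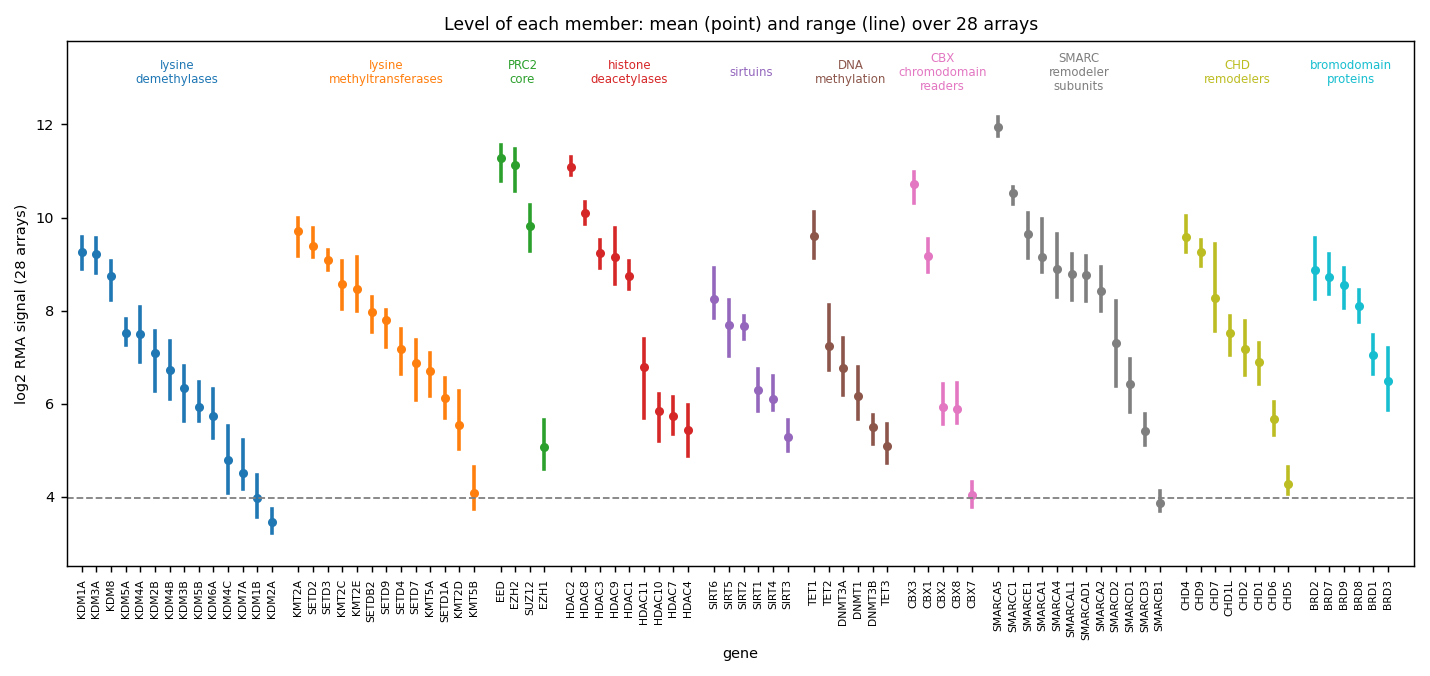
Mean log2 RMA signal of each of the 83 members over 28 arrays (point) with the lowest and highest array (line), grouped by role. The dashed line marks 3.98 log2. SMARCA5 is the brightest member and KDM2A the dimmest.

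Between B7.10 and DT40, the SWI/SNF subunits SMARCD2 and SMARCE1 and the demethylases KDM4A, KDM3A and KDM5B were among the members that rose. SETD7, DNMT3A, HDAC11 and SETD4 were among those that fell. Over 3 conditions and 3 serum batches (9 arrays a line), 18 of 83 members differed (21.7%), 10 higher and 8 lower in B7.10, at an adjusted p under 0.05 in limma. Of all genes 19.6% differed, so the share of members is near the background. Of all genes 6.8% were called higher and 12.8% lower. The median difference was 0.04 log2 for the members and 0.0043 for all genes. In bulk RNA, fewer cells of a type and less RNA per cell cannot be told apart. Markers of cell types moved between these lines too: 8 of 12 measured B cell genes were called (5 higher, 3 lower), as were 1 of 6 T cell and 1 of 4 myeloid genes, both higher. BTK, the targeted gene, is among these 12, among the 3 lower and in the B cell sum. Its call follows from the knockout. The summed B cell markers ranged from 13.17 to 13.49 log2 in DT40 and 13.16 to 13.53 in B7.10, the T cell markers from 11.74 to 12.22 and 11.93 to 12.32, and the myeloid markers from 10.25 to 10.66 and 10.65 to 11.07. CD3D carried most of the T cell sum (medians 11.90 in DT40 and 12.14 in B7.10). SPI1 (9.76 and 10.21) and CTSS (8.83 and 9.06) carried most of the myeloid sum. IKZF1, a lymphoid factor, was 1.17 ± 0.12 lower in B7.10. What part the cell type markers had in the results was not tested.

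SMARCD2, an accessory subunit of SWI/SNF complexes, differed most. Its level lay between 6.38 and 7.34 (median 6.75) on the 10 DT40 arrays and between 7.57 and 8.22 (median 7.71) on the 10 B7.10 arrays, so the lines did not overlap. The difference was 0.91 ± 0.08 log2 (SE, adjusted p 1.74e-07), or 1.88-fold, and it was higher in 9 of 9 pairs of arrays matched for condition and batch. SMARCE1, another SWI/SNF subunit, ran from 9.13 to 9.79 (median 9.32) in DT40 and from 9.66 to 10.09 (median 9.93) in B7.10, overlapping only through the 24 h arrays of DT40. It was 0.49 ± 0.06 higher (adjusted p 4.19e-06). SMARCAD1, a remodeler of heterochromatin, was 0.22 ± 0.07 higher on average, but differed by only 0.02 at 24 h. SMARCAL1, which remodels stalled replication forks, was 0.27 lower on average, but its batch means were -0.37, 0.05 and -0.50. No other of the 12 SMARC members was called (19.6% of all genes were).

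Among the lysine demethylases, 3 of 14 rose and 1 fell, beside 6.8% and 12.8% of all genes. KDM4A, which acts on methylated lysines of histone H3, ran from 6.88 to 7.87 in DT40 and 7.46 to 8.07 in B7.10. It was 0.49 ± 0.06 higher (adjusted p 1.6e-05), in 9 of 9 pairs. The 2 other probe sets of KDM4A rose by 0.23 and 0.25, and 1 of them was called. KDM3A rose by 0.31 ± 0.06, and both of its other probe sets rose too, by 0.41 and 0.48. KDM5B rose by 0.24 ± 0.08. KDM2B, which binds unmethylated CpG islands and belongs to a variant Polycomb complex, was 0.33 ± 0.07 lower (adjusted p 0.00222). Of its 3 other probe sets 2 were lower too, and the highest differed by 0.05.

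Of 13 lysine methyltransferases, 2 rose and 2 fell, beside 6.8% and 12.8% of all genes. SETD7, which methylates histone H3 and other proteins, ran from 6.74 to 7.35 (median 7.22) in DT40 and 6.08 to 6.96 (median 6.59) in B7.10. It was lower in 9 of 9 pairs, by 0.61 ± 0.09 (adjusted p 4.4e-05), and its second probe set fell by 0.57. SETD4 fell by 0.41 ± 0.08. KMT2E, a SET domain protein also known as MLL5, rose by 0.34 ± 0.08, and SETD2, which methylates histone H3 along transcribed genes, by 0.15 ± 0.05.

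Single members of the other classes also differed. DNMT3A, a de novo DNA methyltransferase, ran from 6.80 to 7.41 (median 6.99) in DT40 and 6.25 to 6.81 (median 6.58) in B7.10, so that the ranges barely overlapped. It was 0.46 ± 0.07 lower (adjusted p 0.000152), but its second, dimmer probe set differed by only -0.02. At 6 h unstimulated the brightest probe set of DNMT3A differed by -0.18 and was not called. HDAC11, the class IV deacetylase, was 0.46 ± 0.10 lower, in 9 of 9 pairs, and HDAC1, a class I deacetylase, 0.28 ± 0.05 higher, in 9 of 9 pairs. CHD1 was 0.33 ± 0.09 lower, with batch means of -0.54, -0.38 and -0.08. EED was 0.22 ± 0.06 lower, and CBX1, the HP1 beta reader of heterochromatin, 0.19 ± 0.05 higher on average. At 24 h CBX1 differed by -0.07. None of 6 sirtuins and none of 6 bromodomain proteins passed, beside 19.6% of all genes. With serum batch as a block in limma, SIRT6 passed at 0.17 (adjusted p 0.0433). HDAC3 at -0.19 (adjusted p 0.0264) and CHD7 at -0.22 (adjusted p 0.0151) passed with the block too. Of the 14 called members with more than 1 probe set, 9 had another one called in the same direction and 0 in the opposite one. The other 5 were DNMT3A, HDAC1, SETD2, EED, whose second probe set differed by -0.05, and CBX1, whose second differed by 0.03. The 3 other probe sets of HDAC1 differed by 0.08 to 0.17. Those of SETD2, 4 in number, differed by -0.05 to 0.22, with 2 in the same direction.

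Of these 18 calls, 14 held whichever of the 18 arrays was left out. KDM5B, SETD2, SMARCAL1 and SMARCAD1 lost theirs for at least 1 array, and the count was 10 without serum batch 1 and 11 without batch 3. Shares of all genes without a batch are not given. CHD1 and EED, besides KDM5B, SETD2 and SMARCAL1, also lost theirs without the 5 arrays of disputed label. KMT2E and CBX1 lost theirs with the mean over probe sets. SMARCD2, SMARCE1, KDM4A, KDM3A, HDAC1, SETD7, DNMT3A, HDAC11 and SETD4 kept theirs whichever array or serum batch was left out, and the other 9 did not.

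**Figure D2:**
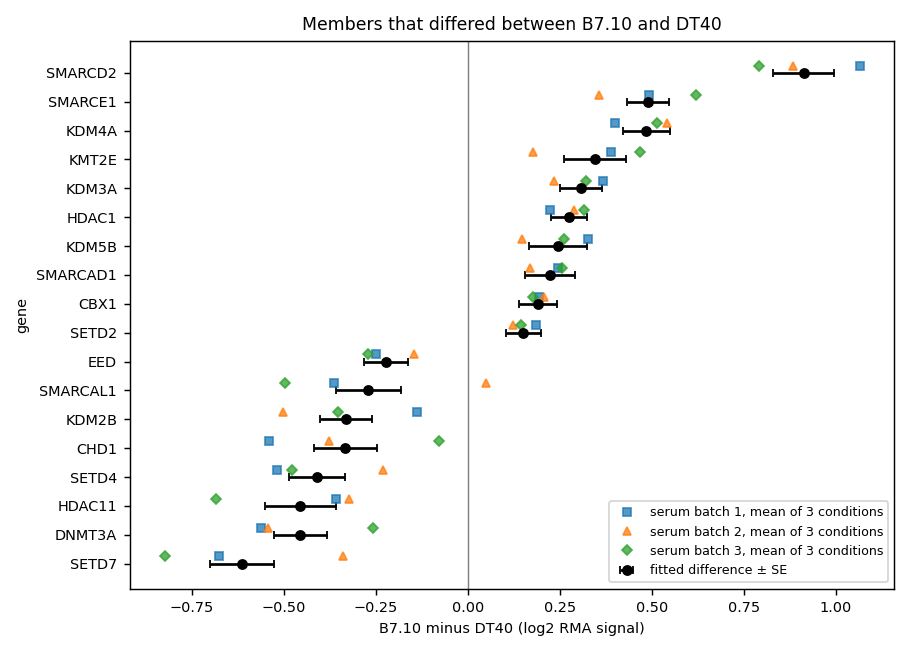
Difference of B7.10 from DT40 in log2 RMA signal for the 18 members called, as fitted value ± SE (black) and as the mean of 3 conditions in each serum batch (coloured). SMARCD2 lies furthest to the right at 0.91 and SETD7 furthest to the left at -0.61, and SMARCAL1 has 1 batch on the other side of 0.

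Within single conditions fewer members passed. At 6 h unstimulated, 7 did (background 7.42%), with SMARCD2 at 0.90, SMARCE1 at 0.57, KDM4A at 0.48 and HDAC1 at 0.33, and SETD7 at -0.73, HDAC11 at -0.59 and SETD4 at -0.51. At 24 h, 6 did (background 6.93%), with SMARCD2 at 0.77, and DNMT3A at -0.73, SETD7 at -0.61, KDM2B at -0.49, EED at -0.41 and KDM8 at -0.38. At 6 h of stimulation, 7 did (background 7.89%), with SMARCD2 at 1.07, KDM4A at 0.62, SMARCE1 at 0.57, KDM3A at 0.48, CBX1 at 0.38, HDAC1 at 0.34 and DNMT3A at -0.45. With serum batch as a block, the last count was 11 (background 9.85%). Calls that held whichever array was left out were those of SMARCD2, SMARCE1 and SETD7 at 6 h, SMARCD2 and DNMT3A at 24 h, and SMARCD2, KDM4A, SMARCE1 and KDM3A at 6 h of stimulation. When a whole serum batch was left out, SMARCD2 alone kept its call in each case at 6 h and at 6 h of stimulation, and no call did at 24 h. Apart from omission of an array or batch, 5 of 7 calls at 6 h held in every alternative setting. At 24 h 3 of 6 did, and at 6 h of stimulation 4 of 7. The SE of a mean over conditions comes from arrays within groups and leaves out the spread between conditions.

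After 6 h of stimulation no member passed in DT40 (0 of 83, with 7 at an unadjusted p under 0.05, background 0.0922%) or in B7.10 (0 of 83, with 16 unadjusted, background 0%). TET2, an enzyme that oxidises methylcytosine, had the smallest p in DT40. Its arrays read 7.16, 6.93 and 6.95 unstimulated and 7.53, 7.42 and 7.40 stimulated, and did not overlap, but the difference of 0.44 ± 0.10 had an adjusted p of 0.234. In B7.10 its arrays read 7.07, 6.73 and 6.82 unstimulated and 7.35, 7.15 and 7.27 stimulated, a difference of 0.39 ± 0.10 (adjusted p 0.0938). KDM3B, an H3K9 demethylase, differed by 0.64 ± 0.15 in B7.10 (adjusted p 0.0809). With serum batch as a block, KDM3B, TET2 and SIRT1 passed in B7.10 (3 of 83, background 1.45%). In the difference between the responses of the lines no member passed in limma (0 of 83, with 3 at an unadjusted p under 0.05, background 0.00769%).

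Between 24 h and 6 h without stimulation, 3 members differed in DT40 (background 0.753%). SIRT5, a mitochondrial deacylase, read between 7.66 and 8.21 on the 3 arrays at 6 h and 7.41, 7.38 and 7.35 at 24 h, a fall of 0.58 ± 0.12 (adjusted p 0.0369). CBX1 read 8.93, 8.92 and 9.07 at 6 h and 9.53, 9.32 and 9.33 at 24 h, a rise of 0.42 ± 0.09. SMARCE1 rose by 0.45 ± 0.10, from 9.37, 9.30 and 9.13 to 9.79, 9.68 and 9.68. The groups did not overlap for any of these, yet each call was lost for some left-out array, and all 3 without the disputed arrays. In B7.10 none passed (0 of 83, 13 unadjusted, background 0.277%), and with the block SMARCAD1 did, at -0.48 (adjusted p 0.0192, background 0.853%). No member passed in the difference between the 24 h responses of the lines (0 of 83, 9 unadjusted, background 0.0154%). DNMT3A came nearest there, at -0.55 ± 0.18 (adjusted p 0.781).

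Serum batch was related to 1 member in an F test (background 0.969%). CHD7, a CHD remodeler of enhancers, was 0.36 higher in batch 2 than in batch 1 and 0.08 higher in batch 3 (adjusted p 0.0465). It was not called without the disputed arrays.

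The lines with human BTK were compared with the others on the 16 arrays of serum batch 1, with 1 array for each of 4 conditions in a line, so their replicates are conditions. B41-13 differed from B7.10 in 20 members, 7 higher and 13 lower (background 14.5%, of which 5.99% higher and 8.54% lower), and B46-5 from B7.10 in 11, 4 higher and 7 lower (background 9.95%, 4.48% and 5.47%). B41-13 differed from B46-5 in 16, 8 each way (background 15.3%, 7.01% and 8.32%). Against DT40, B41-13 differed in 13, 3 higher and 10 lower (background 18.4%, 5.98% and 12.4%), and B46-5 in 16, 7 higher and 9 lower (background 15.6%, 5.68% and 9.91%). These comparisons share arrays. Summed cell type markers differed between the lines as well. The B cell sum was 13.59 to 13.71 in B41-13 and 13.36 to 13.42 in B46-5, with 5 of 12 genes called (4 higher and 1 lower in B41-13). BTK is among these 12. The T cell sum was 11.84 to 12.01 and 12.38 to 12.43, with 1 of 6 called (lower), and the myeloid sum 10.95 to 11.19 and 10.50 to 10.73, with 1 of 4 called (higher), and none of these 3 sums overlapped between the 2 lines. CD3D carried most of the T cell sum, with medians of 11.84 in B41-13 and 12.36 in B46-5. No other T cell marker had a median above 5.59 in these lines. SPI1 (medians 10.35 and 10.24) and CTSS (9.43 and 7.87) carried most of the myeloid sum. Of the B cell markers, CD74 (medians 12.24 and 11.48), CD79B (11.46 and 11.75) and POU2AF1 (10.88 and 10.67) were the brightest. CD74 and POU2AF1 were thus higher in B41-13 and CD79B lower. All 3 sums follow a few genes and do not measure cell type content. The part of these markers in the results was not tested. Without the disputed arrays, of which 3 are of these lines, the counts were 11, 3, 9, 8 and 9. Shares of all genes without those arrays are not given, so these counts have no background. Many calls depended on the setting. Of the largest calls (up to 6 each way), those that held in every alternative setting, omission of an array aside, were few for B46-5 against B7.10 (1 of 10). They were 7 of 12 for B41-13 against B7.10 and 9 of 12 for B41-13 against B46-5. Against DT40 they were 7 of 9 for B41-13 and 6 of 12 for B46-5.

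DNMT3A and HDAC11 were high in B41-13 and low in B46-5. DNMT3A read 7.05, 6.78, 7.07 and 7.18 in B41-13 (6 h, 24 h, 2 h stimulated, 6 h stimulated) and 6.38, 6.43, 6.63 and 6.20 in B46-5. B41-13 was higher by 0.61 ± 0.11 than B46-5 (adjusted p 0.00127) and by 0.59 ± 0.11 than B7.10, and B46-5 was lower than DT40 by 0.65 ± 0.11. HDAC11 read 7.26, 6.95, 6.92 and 7.27 in B41-13 and 6.73, 6.01, 6.58 and 6.61 in B46-5, a difference of 0.61 ± 0.11 (adjusted p 0.000735). The ranges did not overlap for either gene, but the call for HDAC11 was lost without the disputed arrays.

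SMARCD2 lay on average between DT40 and B7.10 in B41-13. It read 7.15 to 7.29 there, inside the range of all DT40 arrays given above. Within serum batch 1 it was 0.65 ± 0.09 below B7.10 (adjusted p 0.000145) and 0.46 ± 0.09 above DT40. In B46-5 it read 7.34 to 7.74, 0.80 ± 0.09 above DT40. There it was 0.30 ± 0.09 below B7.10, which did not pass (adjusted p 0.0673). On average B46-5 thus lay between DT40 and B7.10 too. KDM2B was below both DT40 and B7.10 in each line with human BTK. It fell from DT40 by 0.74 ± 0.08 in B41-13, which read 6.73, 6.66, 6.28 and 6.79, and by 0.59 ± 0.08 in B46-5, which read 6.72, 6.89, 6.57 and 6.91. From B7.10 it fell by 0.57 ± 0.08 and 0.41 ± 0.08, and the last call was lost without the disputed arrays.

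Other members set B46-5 apart from B41-13. KDM4C, an H3K9 demethylase, read 4.11, 4.15, 4.57 and 4.09 in B46-5 and 4.65, 4.56, 5.09 and 5.02 in B41-13. The B46-5 values lay close to 3.98, the level below which 40% of probe sets fell. KDM4C was 1.03 ± 0.09 below B7.10 in B46-5 (adjusted p 4.34e-07). KDM4B ran the other way, with 6.98, 7.25, 7.35 and 7.26 in B46-5 against 6.54, 6.46, 6.63 and 6.49 in B41-13, a difference of -0.68 ± 0.09 for B41-13 minus B46-5 (adjusted p 4.02e-05). TET1 and SIRT6, a nuclear deacylase, differed the same way by -0.64 ± 0.10 and -0.58 ± 0.09, and BRD3, a BET bromodomain protein, by -0.66 ± 0.16. SMARCA2 and SMARCA4, the alternative ATPases of SWI/SNF, were 0.58 ± 0.10 and 0.57 ± 0.12 higher in B41-13 than in B46-5. SMARCA4 read 8.28, 8.55, 8.64 and 8.61 in B46-5 and 8.82, 8.76, 9.16 and 9.65 in B41-13.

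**Figure D3:**
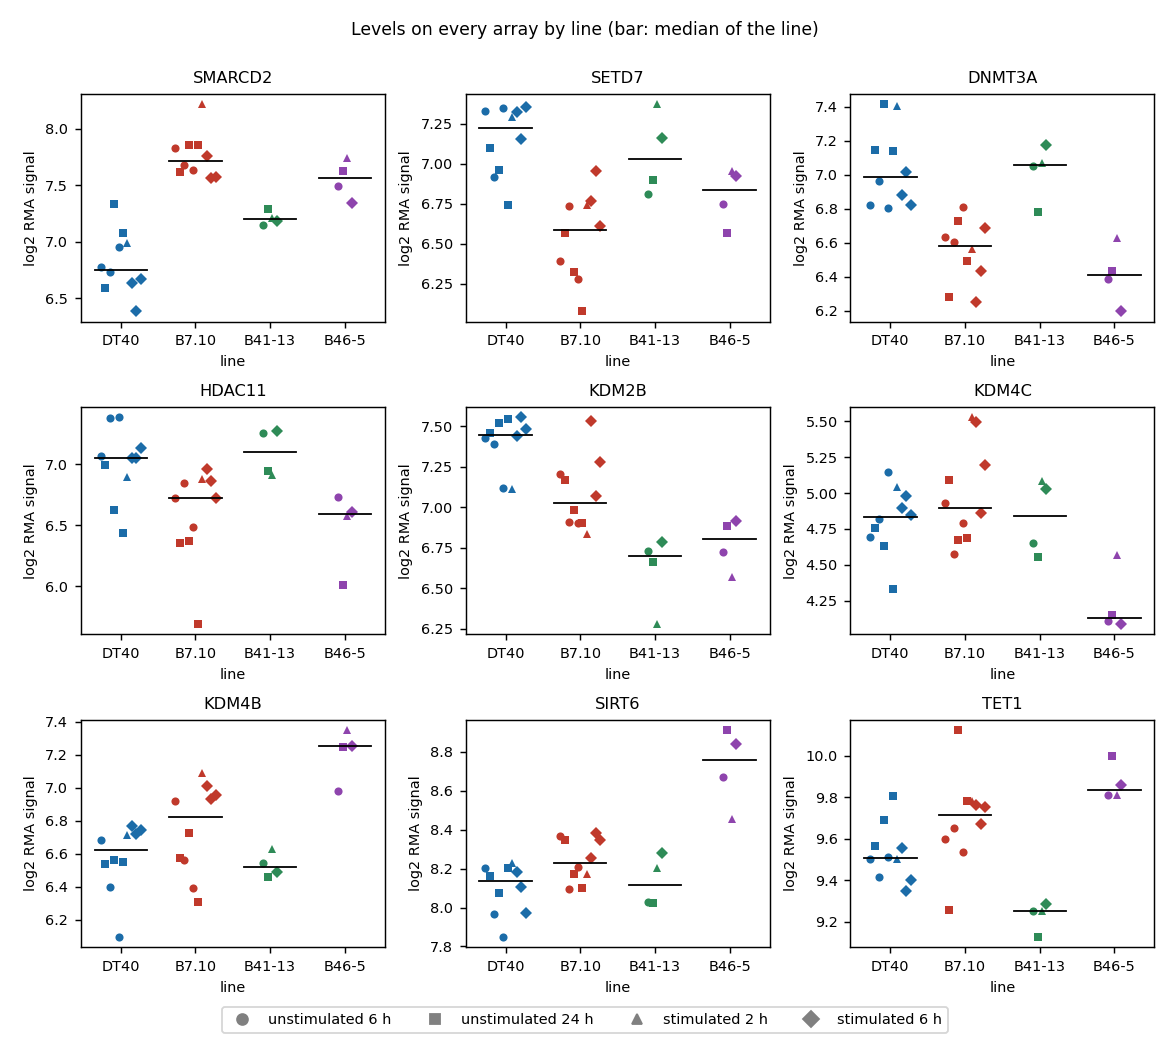
Log2 RMA signal of 9 members on every array by line (10 arrays each for DT40 and B7.10, 4 each for B41-13 and B46-5), with the condition as marker shape and the median of the line as a bar. SMARCD2 does not overlap between DT40 and B7.10, and DNMT3A is high in DT40 and B41-13 and low in B46-5.

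At 2 h of stimulation CHD7 and TET2 were higher and 3 of the 4 PRC2 core genes lower than at 6 h without stimulation, in all 4 lines. Over the lines, 15 members differed, 6 higher and 9 lower (18.1%, background 11%, with 4.2% higher and 6.76% lower). A fit to all 28 arrays called 25, and the share of all genes in that fit is not given. No unstimulated array was taken at 2 h, so stimulus and time cannot be told apart, and each line has 1 array per condition. The median change was -0.02 for the members and -0.05 for all genes. Without stimulation, some called members differed the same way between 24 h and 6 h in DT40 and B7.10. CHD2 differed by 0.62 and 0.49, TET2 by 0.22 and 0.30 and EZH2 by -0.28 in both. SUZ12 differed by -0.21 and -0.38 and SMARCAD1 by -0.20 and -0.48. None of these passed without the block, and with it CHD2 did in DT40 (adjusted p 0.0348) and SMARCAD1 in B7.10. BRD1, KDM2B and CHD1L ran the opposite way in both lines. What part the 6 h arrays had was not tested.

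CHD7 read 8.01 at 6 h and 9.42 at 2 h in DT40, 7.86 and 8.67 in B7.10, 8.41 and 9.03 in B41-13, and 8.23 and 8.98 in B46-5. The mean rise was 0.90 ± 0.10 (adjusted p 4.63e-05), with 1.41 in DT40 the largest and 0.62 in B41-13 the smallest. Of its 6 other probe sets, 5 rose by 0.69 to 1.11. TET2 read 7.16 and 7.93 in DT40, 7.07 and 7.80 in B7.10, 7.02 and 8.11 in B41-13, and 6.86 and 7.43 in B46-5, a rise of 0.79 ± 0.09 (adjusted p 4.23e-05). Both were also above the 6 h stimulated array of the same line in 4 of 4 lines. SMARCA1, an ISWI ATPase, rose by 0.61 ± 0.10 and its second probe set by 0.65. CHD2 rose by 0.49 ± 0.10, KDM4C, on its dim probe set, by 0.46 ± 0.09 and KDM3B by 0.35 ± 0.09.

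EZH2 read 11.28 and 10.60 in DT40, 11.40 and 11.06 in B7.10, 11.26 and 10.57 in B41-13, and 11.33 and 10.86 in B46-5, a fall of 0.55 ± 0.09 (adjusted p 0.00106). Its second probe set fell by 0.39 and the third, dimmest one differed by 0.04. SUZ12, which holds the complex together, fell by 0.49 ± 0.10, and EED by 0.34 ± 0.08. EZH1 read 0.33 ± 0.10 higher and did not pass (adjusted p 0.0533). SMARCAD1 fell by 0.65 ± 0.07 (adjusted p 3.13e-05), between 0.61 and 0.70 in each line. BRD9, a subunit of a SWI/SNF complex, fell by 0.41 ± 0.10, and BRD1 by 0.52 ± 0.13, but none of the 5 other probe sets of BRD1 passed and 3 of them were higher. Calls for KDM3B, BRD9, BRD1 and EED were lost for at least 1 left-out array. Of the 12 members named for 2 h, 9 kept their call in every alternative setting. Only 7 kept it both there and whichever array was left out.

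**Figure D4:**
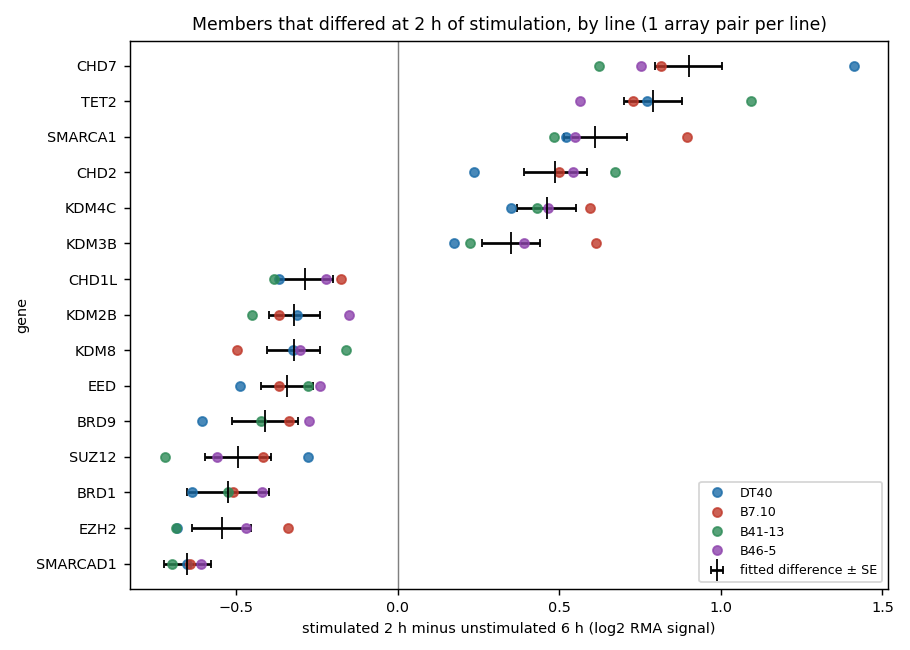
Change from 6 h unstimulated to 2 h stimulated in log2 RMA signal for the 15 members called, fitted over 4 lines ± SE (black) and in each line (coloured, 1 array pair each). All 4 lines lie on the same side of 0 for each member, with CHD7 at the top and SMARCAD1 at the bottom.

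**Figure D5:**
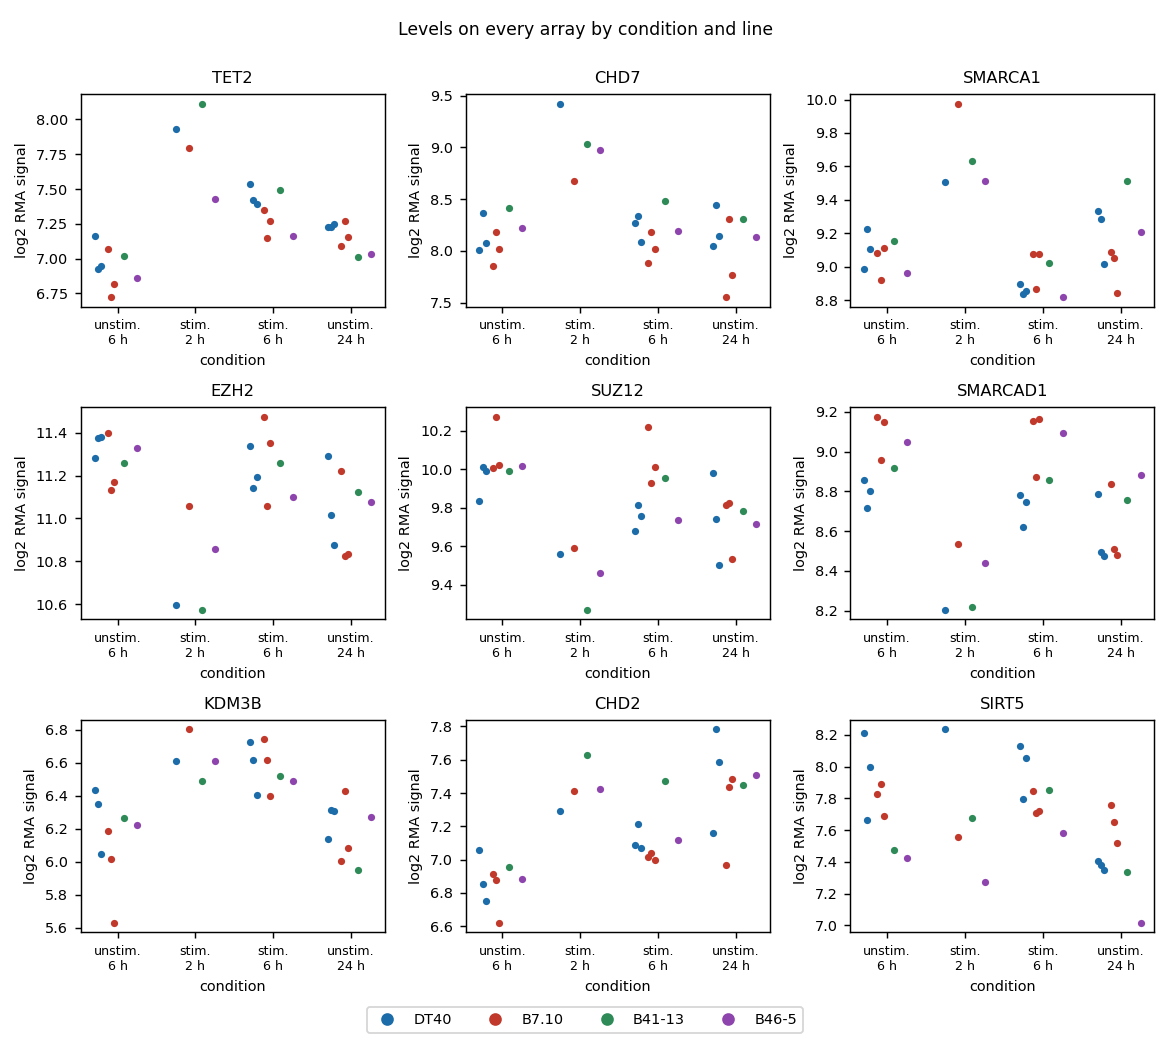
Log2 RMA signal of 9 members on every array by condition, coloured by line. The 2 h arrays carry the highest CHD7 level of each line and the lowest SMARCAD1 level of B41-13 and B46-5.

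Genes that work beside the members were read from 6 lists. Of 127 listed genes 102 were measured, and 23 differed between B7.10 and DT40, 16 higher and 7 lower, beside 19.6% of all genes (6.8% higher and 12.8% lower). JARID2, a PRC2 cofactor, was 0.59 ± 0.08 lower (adjusted p 2.31e-05), and BMI1, a PRC1 subunit, 0.19 ± 0.06 lower, the only calls among 17 Polycomb partners. Of 21 other SWI/SNF, ISWI and INO80 subunits, 5 were higher and 0 lower, with ARID1B at 0.33 and YEATS4 at 0.30. RCOR1, the CoREST scaffold, was 0.52 ± 0.10 higher and GATAD2A, a NuRD subunit, 0.42 ± 0.08. DPY30, a subunit of H3K4 methyltransferase complexes, was 0.29 higher and SMYD2 0.39 lower. At 2 h of stimulation, 18 of the 102 differed, 8 higher and 10 lower, beside 11% of all genes (4.2% higher and 6.76% lower). Among them were 5 of 17 histone chaperone and heterochromatin genes, all lower. Of the marker lists, 2 of 6 fibroblast genes were lower at 2 h. Medians of the 6 over all arrays were 2.71 for LUM, 3.37 for PDGFRA and 3.55 for DCN. Those of COL1A1, COL3A1 and COL1A2 were 5.34, 6.55 and 6.87.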

How the data were processed

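Expression was measured on 28 Affymetrix chicken arrays. The deposited values are log2 signals per probe set, made by the authors with RMA per the submitters' processing notes. The sources used here give neither the version of RMA nor whether it was run on all arrays at once. Of 38535 probe sets, 153 controls were left out and 38382 tested. The platform table gave 1 symbol for 27168, several for 177 and none for 11037. Array medians lay between 4.37 and 4.50, and the number of arrays limits the precision.

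Groups came from the titles. limma 3.58.1 in R 4.3.3 was fitted to 18 arrays of DT40 and B7.10 as 6 group means (12 residual degrees of freedom) and to the 16 arrays of serum batch 1 as line plus condition (9), with Benjamini-Hochberg adjustment over all probe sets and a threshold of 0.05. The scripts were tested on simulated data. The labels say that the replicate number marks a shared serum batch. Deviations from the group means correlated with a median r of 0.12 over 45 pairs of arrays of the same batch and -0.06 over 90 pairs of different batches, so a fit with the batch as a block was also made.

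Alternatives were the block, cyclic loess, trend and robust moderation, the mean over a gene's probe sets, all 28 arrays, omission of the disputed arrays, and omission of each array or batch. A rule marked up to 15 called members each way, by size, for B7.10 minus DT40 and up to 6 for the other comparisons. Where none was called it took the smallest p. It also marked the brightest and dimmest members and up to 2 called genes each way of each other list by p. The text gives only part of those marked for the line comparisons, the responses and the other lists, with no rule for that choice. KMT2D, BRD7, KDM7A, BRD2, SETDB2, HDAC9 and SMARCD1, for example, were marked and are given no values. EZH1 and SIRT1, and the single cell type markers given, were named after their values were seen. The members and lists were chosen with earlier results of these data known.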

Additional observations from a re-analysis of the deposited data

How the results depend on the processing

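With serum batch as a replicate block, the count of members called between B7.10 and DT40 at 6 h of stimulation was 11 (7 without it), that for 6 h of stimulation in B7.10 was 3 (0 without it) and that for 24 h against 6 h in B7.10 was 1 (0 without it). The block moved no other count by over 1.5 times. With the mean over a gene's probe sets, the count for 24 h against 6 h in DT40 was 1 and that for the serum batches 0, and both were 0 without the 5 disputed arrays, where fewer arrays enter. Without those arrays the counts were 11 for B41-13 against B7.10, 3 for B46-5 against B7.10, 9 for B41-13 against B46-5, 8 for B41-13 against DT40 and 9 for B46-5 against DT40. Over all 28 arrays the 2 h comparison called 25. Leaving out 1 array or batch gave 10 to 21 for B7.10 against DT40, 1 to 8 at 6 h, 2 to 7 at 24 h and 1 to 9 at 6 h of stimulation, 0 to 6 and 0 to 2 for 24 h against 6 h in DT40 and B7.10, and 0 to 1 for the serum batches. It gave 11 to 23, 5 to 12, 11 to 18, 9 to 15 and 10 to 18 for the 5 line comparisons in the order above, and 11 to 17 for the 2 h comparison. For B7.10 minus DT40, EZH2, which was not called, turned to 0.0036 with the mean over probe sets and 0.012 without the disputed arrays, and lay between -0.103 and 0.015 with 1 array or batch left out. The dim members SMARCB1 and KDM1B, also not called, lay between -0.0256 and 0.112 and between -0.0234 and 0.104 in that way. Apart from the block, shares of all genes are not given for these settings, so a change in the members cannot be told from one in all genes. Where no value shows otherwise, the cause was not tested.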
